A study of Monodelphis domestica with 8 samples.

Results

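The regions described here are the stretches of 1 Mb on the opossum autosomes in which no H3K4me3 peak was centred. Chromosomes 1 to 8 were cut into 1 Mb bins, from the bin of the first to the bin of the last peak of any deposited list, and a bin was taken as H3K4me3-free, a class chosen by the positions of the H3K4me3 peaks, when it held the midpoint of no peak of the H3K4me3 list. This gave 471 H3K4me3-free bins among 3422 autosomal bins, or 13.8% (exact 95% interval 12.6% to 15.0%). Because H3K4me3 positions chose these bins, their lack of H3K4me3 is a description and not a finding, and what follows concerns their location and the peaks of the 3 other lists in them. No H3K4me3 peak reached into any of the 471 bins, even by its edge.

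The study used ChIP-seq, the sequencing of DNA that is pulled down with an antibody against a histone mark, for H3K4me3, H3K9Ac, H3K27me3 and H3K9me3. The tissue was the brain of female fetuses of Monodelphis domestica, a marsupial kept as a laboratory animal, at embryonic day 13. There were 8 libraries, 2 per mark, each made from chromatin pooled from 2 sister fetuses. The first pool came from an LL2 mother and an LL2 father and the second from an LL1 mother and an LL2 father. No treatment, allele or transgene is named in the labels. Both libraries of a mark refer to 1 deposited peak list, so every value below comes from a single list per mark, without replicate error and without a test between samples. The lists hold positions and scores and name no genes, so the tissue label was not checked against marker genes and regions are named by position. They come from whole tissue, in which a mark present in few cells and a mark that is absent cannot be told apart. Read counts are not part of the lists, and the depth behind a peak is unknown.

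H3K4me3 is a methylation of histone H3 found at the start sites of active and poised genes, and a long stretch without it generally holds few active promoters. H3K9Ac is an acetylation that accompanies H3K4me3 at active promoters and also occurs at enhancers. H3K27me3 is deposited by Polycomb repressive complex 2, often over CpG-rich promoters of developmental genes, and H3K9me3 marks constitutive heterochromatin, including silenced repeats. Gene-poor stretches of vertebrate genomes can span megabases, and the opossum genome is known for long chromosomes rich in transposable elements.

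In the H3K4me3-free bins the other promoter-associated marks were rare, which the rule itself favours. The share of bins with H3K9me3 was near that of the autosomes in general. At least 1 H3K9Ac peak midpoint lay in 19 of the 471 bins (4.03%, exact 95% interval 2.45% to 6.23%), against 74.6% of all autosomal bins. H3K27me3 was present in 15 bins (3.18%, 1.79% to 5.20%), against 54.3% of all autosomal bins. H3K9me3 was present in 62 bins (13.2%, 10.2% to 16.6%), against 13.4% of all autosomal bins, a share near the background. In the other bins 90.2% of H3K9Ac peaks and 52.7% of H3K27me3 peaks touched an H3K4me3 peak. Such peaks can hardly be centred in a free bin. Counting only peaks that touched no H3K4me3 peak, 23.8% of all autosomal bins held H3K9Ac, 31.4% H3K27me3 and 11.3% H3K9me3. With the top-scoring 50% of each list, where 787 bins were free, H3K27me3 was present in 8.89% of free bins against 42.6% of all, H3K9me3 in 5.21% against 5.90% and H3K9Ac in 3.68% against 62.3%. With all peaks, in 382 of the 471 bins (81.1%, 77.3% to 84.5%) no peak of any list was centred, and 16.5% of all autosomal bins held no peak of the 3 lists other than H3K4me3. The same constraint of the rule raises the share of empty bins. These intervals are Clopper-Pearson intervals that cover counting of bins only. Neighbouring bins are not independent, so they are too narrow, and no test of these differences was run.

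The free bins were spread over all 8 autosomes in unequal shares. Chromosome 7 had 54 of its 261 bins free of H3K4me3 (20.7%, 15.9% to 26.1%), and chromosome 5 had 61 of 305 (20.0%). Chromosome 3 followed with 81 of 528 (15.3%), chromosome 4 with 62 of 436 (14.2%), chromosome 2 with 65 of 542 (12.0%) and chromosome 1 with 87 of 748 (11.6%). The lowest shares were those of chromosome 6, with 31 of 292 (10.6%), and chromosome 8, with 30 of 310 (9.68%, 6.62% to 13.5%). Each share lay within the intervals of its neighbours in this order, except that the shares of chromosomes 5 and 3 each lay outside the interval of the other (15.7% to 24.9% and 12.4% to 18.7%), and those 2 intervals overlapped. Chromosomes 7 and 5 had the fewest H3K4me3 peaks per bin (4.44 and 4.98). This mean counts the free bins too, so it is not independent of their share. Chromosome 8, with the smallest share of free bins, had 6.18 per bin, below the 7.76 of chromosome 2.

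Ends are taken here as the first and last bin with a peak of any list, so each end bin holds a peak by construction. Sequence beyond these bins is not counted, and chromosome lengths were not used. Each of the 16 first and last bins held an H3K4me3 peak, and the free bin nearest to an end lay 2 bins from it. Within 10 bins of an end, 13 of 160 bins were free (8.13%, 4.40% to 13.5%), against 458 of 3262 bins farther in (14.0%, 12.9% to 15.3%). The intervals overlap. With the top-scoring 50% of each list, an alternative chosen for this value after seeing the data, 20.0% of the end bins and 23.0% of all bins were free. When each chromosome was divided into 10 equal stretches, the share of free bins ran from 9.14% in the stretch at the high-coordinate end (31 of 339) to 17.3% in the second from the low-coordinate end (59 of 342). The distance from an end bin to the first free bin differed widely. At the high-coordinate end of chromosome 3 it was 53 bins, on chromosome 2 it was 29 and on chromosome 4 it was 28, while on chromosome 8 it was 3 and on chromosome 5 it was 7.

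**Figure D1:**
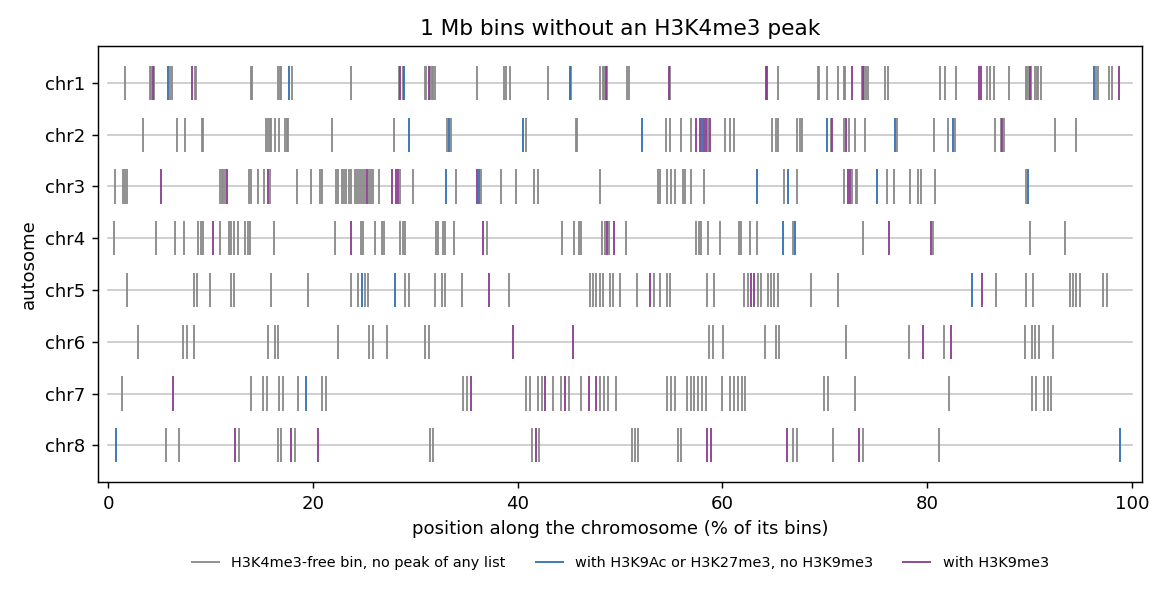
Position of each H3K4me3-free bin along autosomes 1 to 8, as a percentage of the bins of its chromosome (horizontal axis). Each vertical mark is 1 bin, grey where no peak of any list was centred (382 bins), blue where H3K9Ac or H3K27me3 but no H3K9me3 was present, and purple where H3K9me3 was present (62 bins). The bins lie in clusters, as in the left part of chromosome 3, and purple marks occur on every chromosome.

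The free bins clustered. The 471 bins formed 286 runs of adjacent bins, of which 177 were single bins and 109 held 2 or more. Bins in runs of 2 or more numbered 294, or 62.4% of the free bins. Of the 942 bins next to a free bin, counting a bin once for each free neighbour, 370 were free themselves (39.3%), compared with 9.72% of the 5886 neighbours of other bins and 13.8% of all bins. Runs of at least 3 bins numbered 41 and held 158 bins, and runs of at least 5 bins numbered 9 and held 53 bins.

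**Figure D2:**
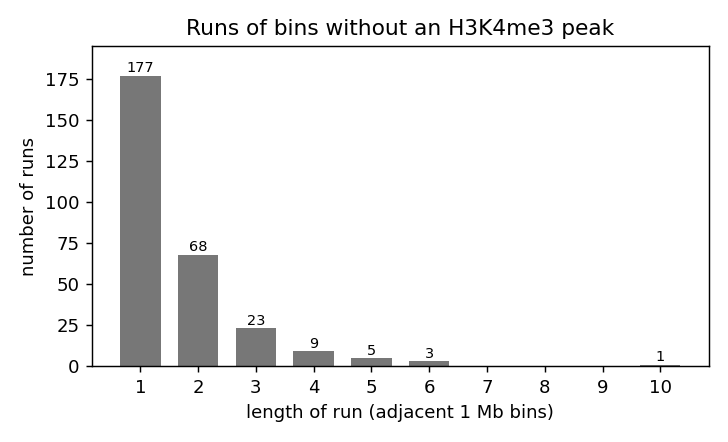
Number of runs (vertical axis) by the number of adjacent H3K4me3-free bins of 1 Mb in the run (horizontal axis). Single bins made up 177 of the 286 runs, 68 runs had 2 bins, and the single run of 10 bins stands apart from the next longest, of 6 bins.

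The runs correspond to the widest gaps in the H3K4me3 list. Between neighbouring autosomal H3K4me3 peaks the median gap was 54.5 kb. Of 22078 gaps, 479 measured 1 Mb or more, 169 measured 2 Mb or more and 11 measured 5 Mb or more. Each of the 286 runs lay in a gap of its own, with a median length of 2.19 Mb and a shortest length of 1.01 Mb. The other 193 gaps of at least 1 Mb, the longest of them 1.82 Mb, straddled bin borders in such a way that no whole bin fitted in them, so the count of free bins leaves out many stretches of comparable length.

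The longest run lay on chromosome 3, at chr3:127000001-137000000, where 10 adjacent bins held no H3K4me3 peak. The H3K4me3 peaks on its sides ended at 126594713 and began at 137342590, a gap of 10.7 Mb that was also the longest on the autosomes. Its left neighbour had an H3K4me3 score of 546 and its right neighbour one of 62.0, near the lowest score of the list. The run held 2 H3K9me3 peaks, both in the bin chr3:133000001-134000000, and no H3K9Ac or H3K27me3 peak. Its first 6 bins, chr3:127000001-133000000, formed one of the 2 longest stretches of bins without a peak of any list.

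Runs of 6 bins lay on chromosomes 2, 5 and 7 and differed in what they held. The run at chr2:313000001-319000000 was the one among the 10 longest with most other peaks, with 4 H3K9me3 peaks and 1 H3K9Ac peak spread over 5 of its 6 bins. The run at chr5:189000001-195000000 held 2 H3K9me3 peaks and 4 empty bins. The run at chr7:147000001-153000000 held no peak of any list in any of its 6 bins, over a gap of 6.75 Mb between H3K4me3 peaks.

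Runs of 5 bins numbered 5. No peak of any list lay in 2 of them, chr5:143000001-148000000 and chr7:158000001-163000000. Each of the remaining runs of this length held H3K9me3 alone: 1 peak at chr1:234000001-239000000, 2 peaks at chr1:670000001-675000000 and 1 peak at chr3:57000001-62000000. The first of the 9 runs of 4 bins, at chr1:30000001-34000000, held 1 H3K9me3 peak. Across the 10 longest runs there were thus no H3K27me3 peaks and a single H3K9Ac peak, at chr2:314042392-314043160 with a score of 53.4. The longest runs of the remaining autosomes were shorter, with 4 bins at chr4:210000001-214000000, 3 bins at chr6:263000001-266000000 and 3 bins at chr8:131000001-134000000.

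Strong H3K4me3 peaks stood at the borders of several of these runs. The peak to the left of the runs at chr1:234000001-239000000, chr5:143000001-148000000 and chr7:158000001-163000000 had a score of 3100 in each case, and so did the peak to the right of chr5:189000001-195000000. On the other side of the run at chr7:158000001-163000000 the score was 76.7. The peaks to the right of chr3:127000001-137000000, chr1:670000001-675000000, chr3:57000001-62000000 and chr1:30000001-34000000 had scores of 62.0, 66.0, 52.7 and 87.45. Over all runs, the 538 H3K4me3 peaks nearest to a run on either side had a median score of 377 (binomial 95% interval of the median 284 to 457), beside 344 for all 22086 autosomal H3K4me3 peaks, and 41.1% of them touched H3K9Ac, beside 42.4% of all. Of the 538 peaks 54 scored under 60, beside 1585 of the 22086.

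The bins just outside the rule are the 365 that held exactly 1 H3K4me3 peak. The scores of their single peaks ranged from 50.2 to 3100 with a median of 354 (260 to 469), 33 of the 365 scored under 60 (9.04%, 6.31% to 12.5%, beside 7.18% of all autosomal H3K4me3 peaks), and the median width was 2169 bp beside 2029 bp over all autosomal H3K4me3 peaks. Of these single peaks 40.0% touched H3K9Ac and 21.1% touched H3K27me3. These are values of the mark that set the rule and are given as a description.

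The other marks were then followed from the free bins to bins with more H3K4me3 peaks. H3K9Ac was present in 4.03% of free bins, 44.1% of bins with 1 H3K4me3 peak, 78.1% of those with 2 to 4, 96.8% of those with 5 to 9 and 99.3% of those with 10 or more. H3K27me3 was present in 3.18%, 28.2%, 47.1%, 69.1% and 85.2% of the same classes. For H3K9me3 the shares were 13.2%, 10.96%, 11.7%, 11.1% and 18.9%. For the first 2 marks the share was higher in each class than in the one before, without overlap of the intervals. The H3K9me3 interval of the free bins (10.2% to 16.6%) overlapped that of every other class, including the richest (16.3% to 21.8%).

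Most H3K9Ac peaks and many H3K27me3 peaks lie on an H3K4me3 peak, and such peaks cannot be centred in a free bin unless they cross its border. A comparison limited to peaks that touch no H3K4me3 peak removes the direct overlap but not the whole constraint. In other bins such peaks lay at a median of 27.7 kb (H3K9Ac), 11.6 kb (H3K27me3) and 30.8 kb (H3K9me3) from H3K4me3. A peak so near can be centred in a free bin only close to its border. The ratios below therefore still hold some effect of the rule. H3K9Ac peaks off H3K4me3 were found in 4.03% of free bins (22 peaks, 0.0467 per Mb), in 9.32% of bins with 1 H3K4me3 peak (6.54% to 12.8%, 0.110 per Mb) and in 26.97% of all bins with at least 1 (1164 peaks, 0.394 per Mb). Per Mb, they were 2.35 times as dense in bins with 1 H3K4me3 peak and 8.44 times as dense in all bins with at least 1 as in the free bins. H3K27me3 peaks off H3K4me3 were found in 3.18% of free bins (16 peaks, 0.0340 per Mb), in 9.59% of bins with 1 H3K4me3 peak (6.77% to 13.1%, 0.137 per Mb) and in 35.9% of all bins with at least 1 (3535 peaks, 1.198 per Mb). The corresponding ratios were 4.03 and 35.3. H3K9me3 peaks off H3K4me3 were found in 13.2% of free bins (70 peaks, 0.149 per Mb), 9.86% of bins with 1 H3K4me3 peak (7.00% to 13.4%, 0.118 per Mb) and 11.01% of all bins with at least 1 (9.91% to 12.2%, 0.177 per Mb). For this mark the interval of the free bins overlapped those of both other classes.

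**Figure D3:**
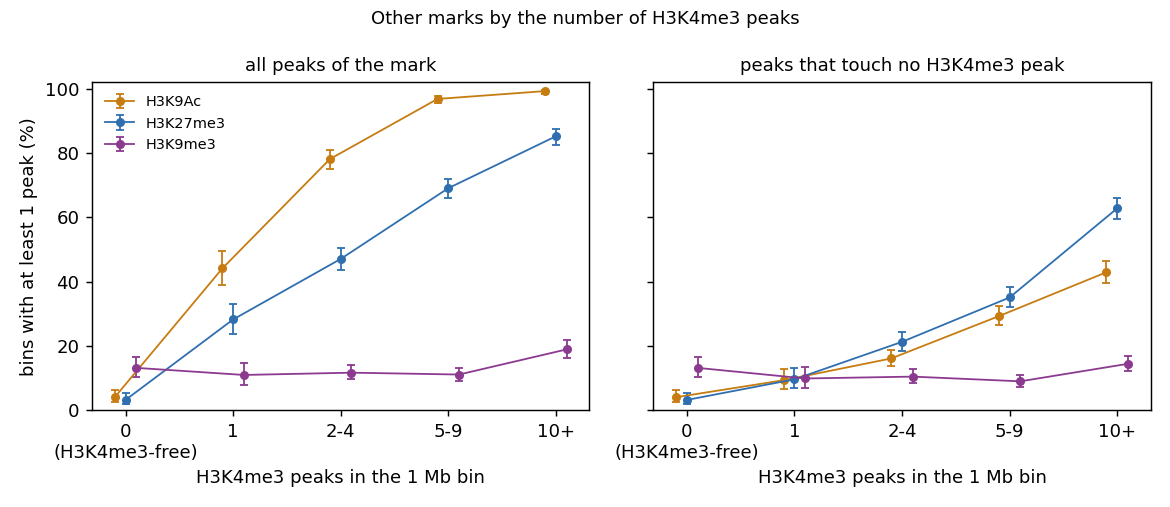
Percentage of bins with at least 1 peak of H3K9Ac, H3K27me3 or H3K9me3 (vertical axis) by the number of H3K4me3 peaks in the bin (horizontal axis, 0 being the H3K4me3-free bins), for all peaks (left) and for peaks that touch no H3K4me3 peak (right). Bars are exact 95% intervals that cover counting of bins only. H3K9Ac and H3K27me3 start at 4.03% and 3.18% in both panels and are higher in each further class, while H3K9me3 stays between 8.98% and 18.9%.

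Expressed as shares of the lists, the free bins, which are 13.8% of all bins, held 22 of 11858 autosomal H3K9Ac peaks (0.186%, 0.116% to 0.281%), 16 of 7485 H3K27me3 peaks (0.214%, 0.122% to 0.347%) and 70 of 699 H3K9me3 peaks (10.01%, 7.89% to 12.5%). H3K9me3 peaks were crowded in a few bins outside the free ones. The bin chr1:333000001-334000000 alone held 31 and the bin chr3:501000001-502000000 held 20, beside 34 and 28 H3K4me3 peaks, and without these 2 bins the share was 10.8% (8.52% to 13.5%). Among the 524 H3K9me3 peaks that touched no peak of any other list, 68 lay in free bins (13.0%, 10.2% to 16.2%). Peaks covered 0.00416% of the free bins for H3K9Ac, 0.00448% for H3K27me3 and 0.0125% for H3K9me3, so that H3K9me3 was the mark with the most covered sequence there (58.7 kb in all, beside 19.6 kb and 21.1 kb). In bins with at least 1 H3K4me3 peak H3K9me3 was the mark with the least, at 0.0230%, beside 0.465% for H3K9Ac and 0.631% for H3K27me3.

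Each mark was present in few free bins: 19 of 471 for H3K9Ac, 15 for H3K27me3 and 62 for H3K9me3. Bins with more than 1 mark can therefore only be few, and their share among all autosomal bins is not given here. Whether the marks avoid or favour each other in free bins was not tested. Of the 89 free bins with any peak, 58 held H3K9me3 alone, 15 H3K9Ac alone and 10 H3K27me3 alone. Only 6 held more than 1 mark: 2 held H3K27me3 and H3K9me3, 2 held H3K9Ac and H3K27me3, 1 held H3K9Ac and H3K9me3 and 1 held all 3. No free bin held more than 2 peaks of any mark, and 12 held 2 peaks of the same mark. By contrast, single bins with 10 or more H3K4me3 peaks held up to 35 H3K9Ac, 59 H3K27me3 or 31 H3K9me3 peaks.

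The free bins were then divided by the length of the run they belonged to. H3K9Ac was present in 13 of 177 single free bins (7.34%, 3.97% to 12.2%), in 4 of 136 bins in runs of 2 (2.94%) and in 2 of 158 bins in runs of 3 or more (1.27%, 0.154% to 4.50%). H3K27me3 was present in 9 (5.08%), 4 (2.94%) and 2 (1.27%) of the same bins. H3K9me3 was present in 21 (11.9%, 7.496% to 17.6%), 16 (11.8%) and 25 (15.8%, 10.5% to 22.5%). The shares of H3K9Ac and H3K27me3 were thus lower in longer runs and that of H3K9me3 was not, but the intervals of single bins and of runs of 3 or more overlap for each mark, and the counts are small.

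By chromosome, the highest share of free bins with H3K9me3 was that of chromosome 8, with 8 of 30 (26.7%), beside 13.2% of all its bins. The lowest was that of chromosome 5, with 5 of 61 (8.20%), beside 10.5% of all its bins. These counts are small and their shares are given without intervals. On chromosomes 2, 4 and 6 the shares were 12.3%, 11.3% and 12.9%, beside 12.5%, 15.6% and 11.3% of all bins. On chromosome 1 H3K9me3 was present in 14 of 87 free bins (16.1%, beside 13.9% of all bins), on chromosome 3 in 10 of 81 (12.3%, beside 15.9%) and on chromosome 7 in 6 of 54 (11.1%, beside 10.7%). H3K9Ac was present in 7 of 65 free bins on chromosome 2 (10.8%, beside 80.3% of all bins) and in at most 3 on any other autosome, and on chromosome 6 none of the 31 free bins held H3K9Ac or H3K27me3. H3K27me3 was present in at most 4 free bins of a chromosome, on chromosome 1. Empty bins made up between 66.7% of the free bins, on chromosome 8, and 87.1%, on chromosome 6.

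Bins beside the free bins were compared by their distance to the nearest one. The median number of H3K4me3 peaks was 2 in the 510 bins directly beside a free bin, 5 at a distance of 2 bins and 8 in the 1299 bins more than 5 bins away. Outside the free bins 90.2% of H3K9Ac peaks and 52.7% of H3K27me3 peaks touched an H3K4me3 peak. The values of these 2 marks by distance are therefore not independent of the H3K4me3 counts. Peaks that touch no H3K4me3 peak were not counted by distance. H3K9Ac was present in 70.4% of the adjacent bins (66.2% to 74.3%), 87.6% at 2 bins and 89.5% beyond 5 bins. With most bins holding a peak this share has little room to differ, and the number of H3K9Ac peaks per Mb was 2.10 in the adjacent bins, 3.57 at 2 bins, 4.04 at 3 bins and 4.74 beyond 5 bins. H3K27me3 was present in 42.2% of the adjacent bins (37.8% to 46.6%), 55.9% at 2 bins, 64.8% at 3 bins and 71.4% beyond 5 bins (68.8% to 73.8%), with 1.05 peaks per Mb in the adjacent bins, 1.97 at 2 bins, 1.95 at 3 bins and 3.41 beyond 5 bins. H3K9me3 was present in 13.1% of the adjacent bins (10.3% to 16.4%), 12.4% at 2 bins and 14.5% beyond 5 bins (12.7% to 16.6%), beside 13.2% in the free bins themselves.

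**Figure D4:**
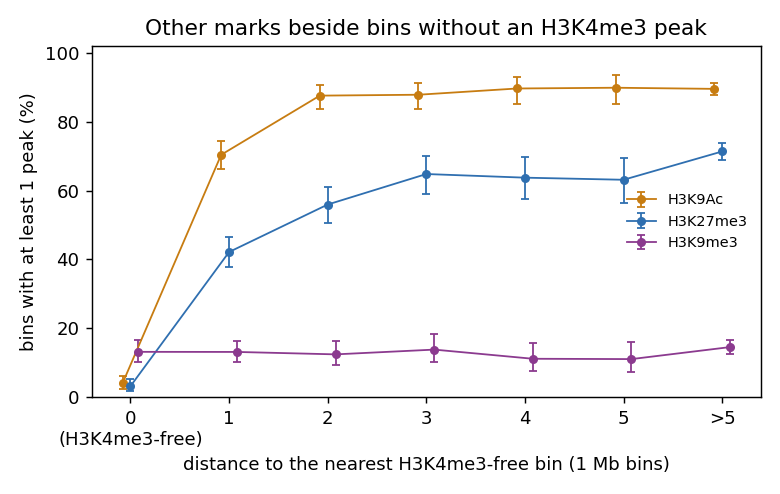
Percentage of autosomal bins with at least 1 peak of H3K9Ac, H3K27me3 or H3K9me3 (vertical axis) by the distance in bins to the nearest H3K4me3-free bin (horizontal axis, 0 being the free bins). Bars are exact 95% intervals for counting of bins. All peaks are counted, also those that touch H3K4me3, and the number of H3K4me3 peaks differs with the distance as well. H3K9Ac is at 70.4% beside the free bins and between 87.6% and 89.9% farther out, H3K27me3 goes from 42.2% to 71.4%, and H3K9me3 stays between 11.1% and 14.5% throughout.

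The 22 H3K9Ac peaks in free bins were weak and narrow, like H3K9Ac peaks elsewhere that touch no H3K4me3. Scores are the authors' value per peak and were compared only within a list. The median H3K9Ac score was 60.2 (52.8 to 68.4) in free bins, beside 59.7 (59.1 to 60.3) for the 1164 H3K9Ac peaks off H3K4me3 in other bins and 84.6 for all H3K9Ac peaks in other bins. Median widths were 781 bp, 790 bp and 1018 bp. The scores ran from 50.1 to 171, and 3 peaks stood above the rest. The strongest, at chr4:287399635-287401084, had a score of 171 and a width of 1450 bp and scored above 85.0% of the H3K9Ac list. The next 2, at chr2:416060229-416061761 and chr2:380650936-380652381, had scores of 141 and 139. The fourth, at chr7:122904927-122905602, scored 84.0 and the fifth, at chr1:337074574-337075406, scored 81.0. The bins with most H3K9Ac peaks, with 2 each, were chr2:416000001-417000000, chr2:447000001-448000000 and chr2:159000001-160000000, all on chromosome 2.

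The 16 H3K27me3 peaks in free bins mostly stood alone. Their median score was 80.4 (63.5 to 192), beside 90.1 (87.0 to 93.6) for the 3535 H3K27me3 peaks off H3K4me3 in other bins and 120.6 for all in other bins, and their median width was 950 bp (744 to 1786) beside 1247 bp and 1480 bp. Both intervals of the free bins include the value of the peaks off H3K4me3. Joining peaks less than 5 kb apart gave 15 domains, of which 1 held 2 peaks and none held 3 or more, whereas 36.2% of the 4478 domains elsewhere on the autosomes held 2 or more. The domains elsewhere include those on H3K4me3, which can hardly be centred in a free bin, and domains off H3K4me3 were not counted apart. The domain of 2 peaks, at chr2:282275502-282281566, spanned 6065 bp, and its peaks had scores of 222 and 135. The highest score, 417, belonged to a peak of 4034 bp at chr8:309972265-309976298, near the end of chromosome 8 and 170 kb from the nearest H3K4me3 peak. A peak of 2988 bp with a score of 192 lay at chr4:287920439-287923426, in the same free bin as the strongest H3K9Ac peak. The longest domains after these, at chr3:191888015-191889436 and chr3:334264769-334265918, were single peaks of 1422 bp and 1150 bp. In the other bins H3K27me3 domains reached 310971 bp.

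The 70 H3K9me3 peaks in free bins differed little from H3K9me3 peaks elsewhere. The median score was 55.9 (55.0 to 57.9), beside 57.9 (57.0 to 58.9) off H3K4me3 and 58.6 in all other bins, and the median width was 789.5 bp (758 to 832) beside 867 bp and 877 bp. The width interval of the free bins lies below that of the peaks off H3K4me3 (842 to 887), so the peaks were slightly narrower, although peaks of a list are not independent and no test was run. Of the 70 peaks 48 scored under 60, close to the lowest score of the list (68.6%, beside 58.2% off H3K4me3 in other bins). Bins with 2 H3K9me3 peaks included the adjacent pair chr1:480000001-481000000 and chr1:481000001-482000000, and chr3:133000001-134000000, chr3:148000001-149000000 and chr4:212000001-213000000. The strongest H3K9me3 peaks that touched no other mark, at chr3:146396010-146396753, chr1:480973840-480975418 and chr4:212723379-212724548, had scores of 113, 99.97 and 92.5.

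**Figure D5:**
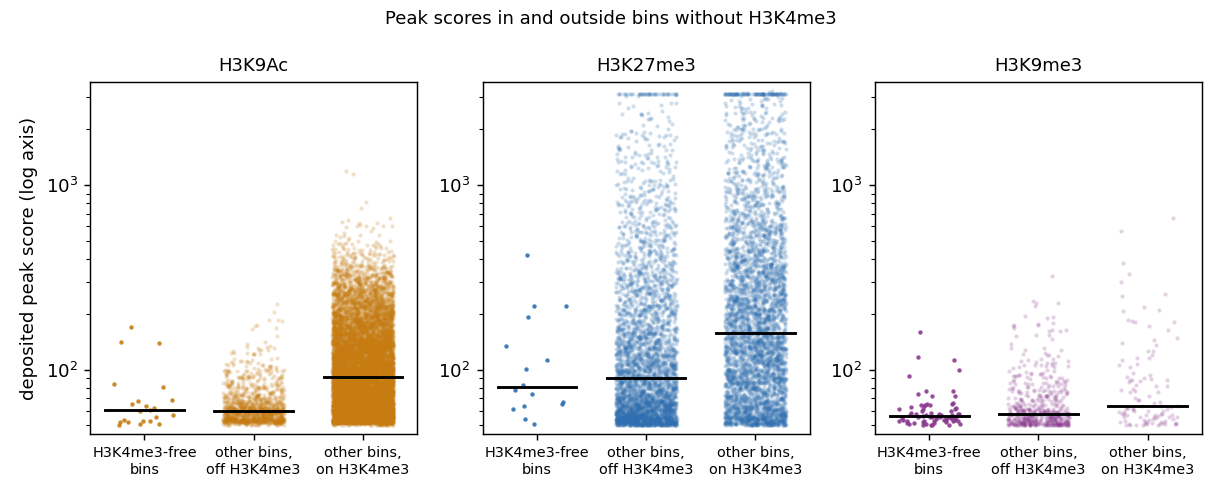
Deposited score of each H3K9Ac, H3K27me3 and H3K9me3 peak on a log axis, in H3K4me3-free bins (22, 16 and 70 peaks), in other bins off H3K4me3 (1164, 3535 and 521 peaks) and in other bins on H3K4me3. Points are peaks spread sideways for legibility and black lines are medians, which are 60.2, 80.4 and 55.9 in the free bins and 59.7, 90.1 and 57.9 off H3K4me3 in other bins.

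The peaks in free bins lay far from any H3K4me3 peak, which the rule itself favours. The gaps that hold free bins were at least 1.01 Mb long, and the distances of other positions in them were not measured. The median distance from edge to edge was 510 kb for H3K9Ac (356 to 666), 519 kb for H3K27me3 (349 to 971) and 1020 kb for H3K9me3 (889 to 1342). The nearest were at 78.7 kb, 60.5 kb and 68.5 kb. The farthest were at 1630 kb, 1987 kb and 4242 kb, the last being the H3K9me3 peak at chr3:133099047-133100306 in the longest run. The interval of the H3K9me3 median does not overlap that of H3K9Ac and overlaps that of H3K27me3. Measured to the top-scoring 50% of H3K4me3 peaks, the median distances were 622 kb for H3K9Ac, 1001 kb for H3K27me3 and 1330 kb for H3K9me3.

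Peaks of different lists coincided at 2 places in the free bins, each within about 1 kb. At chr7:122904382-122905392 an H3K27me3 peak (score 113) shared bases with the H3K9me3 peak chr7:122904641-122905472 (score 160) and with the H3K9Ac peak chr7:122904927-122905602 (score 84.0), 518 kb from the nearest H3K4me3 peak. At chr1:409592045-409592663 an H3K27me3 peak (score 222) shared bases with the H3K9me3 peak chr1:409591798-409592699 (score 117), 1240 kb from H3K4me3. These were the 2 highest-scoring H3K9me3 peaks of all free bins. On the autosomes, 2 H3K9me3 peaks touched both H3K9Ac and H3K27me3 without touching H3K4me3, and the chromosome 7 peak was 1 of them. Overlap of H3K9me3 with H3K27me3 was otherwise not seen in the free bins (2 of 70 peaks, 2.86%, exact 95% interval 0.348% to 9.94%), beside which 12.1% of the 521 H3K9me3 peaks off H3K4me3 in other bins touched H3K27me3 (9.42% to 15.2%). These intervals overlap, no test was run, and the free bins held 16 H3K27me3 peaks in all that could be touched.

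The same rule was applied to the X chromosome. Of its 77 bins 10 held no H3K4me3 peak midpoint (13.0%), a share close to that of the autosomes. All 10 held H3K27me3, as did all 77, so this is a value of the chromosome and not of its free bins. The free X bins held between 20 and 167 H3K27me3 peaks with a median of 37.5, beside a median of 99 over all X bins and at most 2 in an autosomal free bin. H3K9me3 was present in 4 of the 10 (48.1% of all X bins) and H3K9Ac in 2 (59.7% of all X bins). The X bins are few and were not tested against the autosomal ones.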

How the data were processed

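Peak lists were deposited by the authors for 4 marks, 1 list per mark from 2 libraries. Per the submitters' processing notes the tools were CASAVA 1.7, Bowtie 1.1.2 and MACS 1.0.1. Not given in the sources used here are the genome build, any settings or threshold, the control and how libraries were merged. The deposited score of each peak was used as it stands and only within a list. How it was computed is not stated, and how MACS was set decides which weak peaks are listed.

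Peaks were assigned to 1 Mb bins by their midpoint. Overlap required at least 1 bp, and domains joined peaks less than 5 kb apart. Starts count from 1. Intervals are exact binomial at 95%, for medians by order statistics. No gene table or genome in the coordinates of the lists was used, so no genes or sequences are given. Named regions are the 10 longest runs, the longest run of each autosome, and 5 bins, 5 peaks or 5 domains per mark with the highest values. The bins and this rule were chosen with earlier results of these data known. Binning and overlap were checked on simulated peaks. Python 3.11.15, numpy 2.4.6, pandas 2.3.3, scipy 1.17.1 and matplotlib 3.10.9 were used.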

Additional observations from a re-analysis of the deposited data

How the results depend on the processing

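Of 109 recomputed values, 89 stayed within the 95% interval (for the count of domains, within 1.5 times) of the value reported and 20 moved out of it. Bins shifted by 500 kb moved none, nor did leaving out any 1 autosome (chosen after seeing the data), which gave 12.2% to 13.9% of free bins with H3K9me3. Each set without 1 autosome shares most bins with the full set. Counting peaks by any shared base moved none, but no H3K4me3 peak reached into a free bin, so the free bins could not change. Leaving out the 16 first and last bins also moved none. As none of these was free, only the share of free bins could change. Bin length sets the counts by construction. With bins of 500 kb, 26.2% were free, 73.5% of these lay in runs of 2 or more, 87.2% were empty and 6.19% held H3K9me3 (7.21% of all bins). With bins of 2 Mb the values were 5.43%, 36.6%, 64.5% and 31.2% (24.2% of all bins). No peak of the 3 lists other than H3K4me3 was centred in 31.1% of all bins of 500 kb and 6.42% of all bins of 2 Mb. With the top-scoring 50% of each list, 23.0% of bins were free (32.6% on chromosome 7, 20.0% near the ends), 8.89% held H3K27me3 (42.6% of all bins) and 5.21% H3K9me3 (5.90%). The overlap of H3K9Ac with H3K27me3, and with H3K9me3, was then 25.0% (1 of 4 peaks each), and the median distance of H3K27me3 to H3K4me3 became 1001 kb. Among the 89 free bins with a peak, 21.3% held H3K9Ac, 16.9% H3K27me3 and 69.7% H3K9me3, with 0% empty by definition. Among all bins with a peak of any list the shares were 83.9%, 61.1% and 15.1%. A free bin enters this set only through at least 1 of these 3 marks, which raises its shares by construction. Where construction does not show the cause, the cause was not tested. No paired analysis was possible because both libraries of a mark share 1 list, and for the same reason no replicate could be left out. Depth is unknown. The sources used here give neither the build nor its alignable sequence, so a bin without marks and a bin that reads cannot reach cannot be told apart.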
